A study of Mus musculus with 217 samples.

Results

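*Nefl*, *Nefm*, *Nefh*, *Ina*, *Mapt*, *Map2* and *Map1b* encode the main filament and microtubule-associated proteins of the neuronal cytoskeleton. They are 7 of the 54532 genes listed in the count tables of both ages. They were chosen by symbol, by a rule that takes no measured value, though with earlier results of these data known. All 7 passed the filter of at least 1 count in each tissue and age. RNA-Seq libraries numbered 217, with 107 from striatum (50 at 6 months and 57 at 12 months) and 110 from cortex (50 and 60). The mice were C57BL/6, and every one, WT included, carried the transgene for the *Lac* repressor driven by the beta-actin promoter (genotype labels Hdh(LacO-140Q/+):beta-actin-LacIR tg and Hdh(LacO-+/+):beta-actin-LacIR tg). LacQ140 mice are heterozygous for a *Htt* allele with an expanded CAG repeat and *Lac* operators in its promoter, and the inducer IPTG releases the repressor so that this allele (m*Htt*) is expressed.

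LacQ140 mice received IPTG continuously from E5, LacQ140_A mice never received it, and IPTG was withdrawn at 2 months in LacQ140_2M and at 8 months in LacQ140_8M (sequenced at 12 months only). WT mice were kept without IPTG (WT) or with it (WT + IPTG). A group had 10 mice per tissue and age (5 of each sex), and 9 (4 females) for WT, LacQ140 and LacQ140_8M in 12-month striatum. Libraries are named below by sex and number. The labels give the 6-month libraries as 1 batch and the 12-month libraries as the other, without saying what the batch was, so age and batch cannot be told apart, and every test was made within 1 age. The tables of the 2 ages were normalised separately, so levels given for both ages are side by side and not compared.

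Neurofilaments are the intermediate filaments of neurons. The light, medium and heavy chains (NFL, NFM and NFH, from *Nefl*, *Nefm* and *Nefh*) and α-internexin (from *Ina*) assemble together and fill large axons, where they set axon calibre. Tau (*Mapt*) binds microtubules mainly in axons, MAP2 (*Map2*) in cell bodies and dendrites, and MAP1B (*Map1b*) in growing and adult axons. In the striatum, spiny projection neurons are poor in neurofilament, and much of it lies in axons that arrive from cortex and thalamus, whose mRNA stays mainly in the distant cell bodies, as well as in a few large interneurons.

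The genes lie on 5 chromosomes (GRCm38). *Nefl* (ENSMUSG00000022055; chr14, 68083863 to 68089095, plus strand) and *Nefm* (ENSMUSG00000022054; chr14, 68082590 to 68124846, minus strand) overlap in the annotation, the span of *Nefm* taking in the whole of *Nefl*, and share 1108 exonic bases, which are 32.8% of the exonic bases of *Nefl* and 19.2% of those of *Nefm*. Whether counting used strand is not given in the sources used here, and without strand reads of the shared stretch cannot be told apart. *Ina* (ENSMUSG00000034336; chr19, 47014698 to 47025327, plus strand) shares 456 exonic bases, 14.1% of its own, with *Nt5c2* on the other strand. *Nefh* (ENSMUSG00000020396; chr11, 4938754 to 4948064, minus strand) overlaps no annotated gene. *Mapt* (ENSMUSG00000018411; chr11, 104231390 to 104332090, plus strand), *Map2* (ENSMUSG00000015222; chr1, 66175273 to 66442583, plus strand) and *Map1b* (ENSMUSG00000052727; chr13, 99421446 to 99516540, minus strand) overlap only genes of at most 0.0234 CPM (mean of a set). The transcripts used for length measure 3240 to 3994 nt for the 4 filament subunits, 5253 nt for *Mapt*, 6258 nt for *Map2* and 11808 nt for *Map1b*, the longest of the 7.

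Promoters are shown for the 3 of the 7 genes that the RefSeq table (GRCm38.p6) held, of which *Map2* and *Map1b* varied together between libraries in 3 of the 4 sets of tissue and age, and the 250 bases before the RefSeq start are printed 5′ to 3′ on the strand of the gene, with TATAAA and GGGCGG (or CCGCCC, its reverse) in capitals. *Ina* is at chr19:47014431-47014680, *Map2* at chr1:66175079-66175328 and *Map1b*, on the minus strand, at chr13:99516603-99516852.
Ina: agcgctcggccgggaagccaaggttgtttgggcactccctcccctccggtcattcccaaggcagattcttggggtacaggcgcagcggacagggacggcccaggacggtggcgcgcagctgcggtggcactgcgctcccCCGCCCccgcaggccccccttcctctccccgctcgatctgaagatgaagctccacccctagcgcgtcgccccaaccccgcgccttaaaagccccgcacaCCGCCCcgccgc
Map2: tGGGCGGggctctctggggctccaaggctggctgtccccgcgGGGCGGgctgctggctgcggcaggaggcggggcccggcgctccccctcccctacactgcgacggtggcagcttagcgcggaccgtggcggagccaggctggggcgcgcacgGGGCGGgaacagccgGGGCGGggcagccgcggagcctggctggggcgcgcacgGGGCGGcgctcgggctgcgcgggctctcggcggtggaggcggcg
Map1b: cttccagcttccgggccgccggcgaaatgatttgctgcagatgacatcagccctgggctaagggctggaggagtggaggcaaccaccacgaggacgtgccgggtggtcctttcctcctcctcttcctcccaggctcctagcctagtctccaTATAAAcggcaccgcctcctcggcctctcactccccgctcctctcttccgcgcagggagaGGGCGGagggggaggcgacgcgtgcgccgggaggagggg
The GC share was 70.8% for *Ina*, 81.2% for *Map2* and 66.4% for *Map1b*, against a median of 52.4% over 32851 mouse promoters of the same length. GGGCGG, read on both strands, stood 2 times before *Ina*, 5 times before *Map2* and 1 time before *Map1b*, and 32.7% of all promoters hold it. TATAAA stood once, before *Map1b*, and 12.4% of all promoters hold it on either strand. CCAAT is held by 33.8% of all promoters, CACGTG by 6.02% and TGACGTCA by 1.55%, and the 3 promoters printed hold none of them. No motif overlapped another. A match of letters is a description and not a binding site.

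Total counts per library lay between 33292057 and 68038831. Tissue labels held for their markers, since the sum of 8 spiny neuron genes was at least 3473 CPM (counts scaled to the TMM-adjusted library total) in every striatal library and at most 448 CPM in every cortical one. *Htt*, counted over both alleles, was lower in LacQ140_A than in WT without IPTG in all 4 sets, by -0.40 (striatum, 6 months), -0.52 (striatum, 12 months), -0.60 (cortex, 6 months) and -0.72 (cortex, 12 months) on the log2 scale, with the least extreme adjusted p = 0.00408. Mean *Htt* was also lower in LacQ140 than in WT + IPTG in every set. It was 102 against 111 CPM and 111 against 146 CPM in striatum (6 and 12 months). In cortex it was 93.7 against 120 CPM and 23.9 against 26.4 CPM. LacQ140_A had means of 87.7 and 93.4 CPM in striatum and 81.5 and 17.0 CPM in cortex, below LacQ140 in every set. The difference of LacQ140_A from WT is therefore not lowering alone. In the 12-month striatum *Htt* was 111 ± 8.15 CPM (n = 9) in the group labelled LacQ140_8M and 111 ± 10.9 CPM (n = 9) in LacQ140, so the total count did not separate this pair in striatum. In 12-month cortex it was 17.99 ± 4.01 CPM (n = 10) in LacQ140_8M and 23.9 ± 4.18 CPM (n = 10) in LacQ140, a difference of -0.41 (SE 0.131, adjusted p = 1.0). A sum of 6 thalamic markers or of 8 cortical markers was above 2 times the median of its set in 7 of 50 striatal libraries at 6 months and 12 of 57 at 12 months. Without these marker-high libraries 0 members were called in any striatal comparison of the lowering groups, of IPTG in WT or of LacQ140_A with WT. The share of all genes called in these fits was 0.00283% to 2.03% at 6 months and 0.00288% to 2.6% at 12 months. The values for LacQ140 against WT + IPTG without them are given with that comparison, and those for the sexes and for the tissues were not computed.

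Per kb of transcript, *Map2* was the highest of the 7 genes in 3 sets and *Nefh* the lowest in all 4. In 6-month striatum of WT + IPTG mice (n = 10), the level was 99.8 ± 8.50 CPM per kb for *Map2*, 79.0 ± 4.31 for *Nefl*, 55.8 ± 3.35 for *Mapt*, 48.3 ± 4.97 for *Nefm*, 35.2 ± 2.71 for *Ina*, 34.4 ± 4.27 for *Map1b* and 14.4 ± 3.69 for *Nefh*. The ranges of *Mapt* and *Nefm*, of *Nefm* and *Ina*, and of *Ina* and *Map1b* overlapped, so these neighbours did not separate, whereas *Map2*, *Nefl* and *Nefh* stood clear of theirs. The order was the same in 12-month striatum, where *Map2* (105 ± 8.59 CPM per kb) and *Nefl* (95.9 ± 7.57) overlapped as well. In 6-month cortex *Map2* reached 182 ± 13.8 CPM per kb, and *Ina* (44.6 ± 4.13) stood above *Nefm* (39.7 ± 4.69) with overlapping ranges. In 12-month cortex *Nefl* (88.4 ± 9.57 CPM per kb) and *Map2* (84.6 ± 14.9) overlapped at the top, and *Map1b* at 5.67 ± 1.69 CPM per kb overlapped *Nefh* (5.12 ± 1.53), which no other set showed. On this scale the mean of *Nefl* was above that of *Nefm*, and that of *Nefm* above that of *Nefh*, in every set. In 12-month cortex the slope of log2 CPM on log2 transcript length (length slope) was negative in every library, from -0.59 to -0.13. Its part in the per-kb levels of that set was not tested.

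Relative to their level, *Map1b* and *Nefh* ranged more widely over the libraries of 12-month cortex than over those of 12-month striatum. *Map1b* ran from 33.9 through a median of 64.6 to 134 CPM in cortex, and *Nefh* from 7.59 through 21.1 to 35.1 CPM. In striatum *Map1b* ran from 431 through 622 to 787 CPM and *Nefh* from 47.98 through 65.2 to 118 CPM. In 12-month cortex, with group means removed, both genes followed the length slope (r = 0.94 for *Map1b* and 0.92 for *Nefh*). *Mapt* was the steadiest of the 7 within every group of the 12-month striatum, with a coefficient of variation between 3.96% and 6.33%, where *Nefh* varied by 12.5% to 29.7%.

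The effect of continuous m*Htt* expression was taken from LacQ140 against WT + IPTG. A gene was called at an adjusted p under 0.05 in edgeR's quasi-likelihood test over all genes and a ratio of at least 1.2 in either direction. This is the 20% bound below, and a fall reaches it at less than 20%. In 6-month striatum *Nefh* was the 1 member called, and it fell by 24.5%; 7.93% of all 35808 genes were called there. *Nefl* and *Ina* passed the adjusted p alone, with declines under the bound, so that 3 of 7 members passed by p alone against 11.8% of all genes. Under a stricter filter on counts (filterByExpr) 15.8% of 18841 genes were called here. The 3 members also varied with each other between libraries, so they do not count as separate results. The median log2 fold change was -0.18 for the 7 members and 0.0 for all genes.

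*Nefh* ran from 39.4 through a median of 52.6 to 83.6 CPM in WT + IPTG (57.4 ± 14.7, n = 10) and from 24.8 through 44.4 to 57.3 CPM in LacQ140 (43.3 ± 8.89, n = 10). The groups overlapped widely, and the 4 highest WT + IPTG libraries lay above every LacQ140 library. The log2 fold change was -0.41 (SE 0.119, adjusted p = 0.0152). WT mice without IPTG ran from 38.4 through 47.1 to 69.3 CPM, closer to LacQ140 than to WT + IPTG, and against them the difference was -0.19 (adjusted p = 0.426).

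Thalamic markers moved with *Nefh*. Of the 6 markers (*Tcf7l2*, *Prkcd*, *Lef1*, *Rora*, *Ntng1* and *Slc17a6*), 5 were called lower in LacQ140 than in WT + IPTG. Their sum ran from 65.0 through 114 to 328 CPM in WT + IPTG and from 67.2 through 75.3 to 110 CPM in LacQ140, with no marker at 0 in all libraries. The median of the sum was 67.6 CPM in WT without IPTG, 76.3 CPM in LacQ140_A and 76.9 CPM in LacQ140_2M. WT + IPTG thus stood above every other group, and LacQ140 was not below them. Across the 50 striatal libraries at 6 months, with group means removed, *Nefh* correlated with the thalamic sum by r = 0.71 (Spearman's rho 0.73, permutation p = 1e-05 for both, the smallest that 100000 resamples can give, adjusted p = 2.4e-05 over 140 relations). Without the 2 libraries farthest out r was 0.66. At 12 months the same relation gave r = 0.81 (rho 0.60, adjusted permutation p = 2.4e-05) over 57 libraries and 0.75 without the 2 farthest. *Nefm* (r = 0.14 and 0.36 at the 2 ages), *Ina* (0.30 and 0.49) and *Nefl* (0.31 and 0.50) had lower coefficients, with rho of 0.17 and 0.30, 0.35 and 0.35, and 0.25 and 0.45, and adjusted permutation p for r from 0.00062 to 0.35. Whether genes differed in this was not tested.

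With the 7 marker-high libraries left out (5 of 10 WT + IPTG, 0 of 10 LacQ140), the *Nefh* difference was -0.14 (adjusted p = 0.704), and with the thalamic sum as a covariate -0.10 (adjusted p = 0.65). Leaving out the single library WT + IPTG F5, whose thalamic sum was the highest at 328 CPM, also ended the call (-0.33, adjusted p = 0.0607). Without the 7 libraries *Nefl* was at -0.14 (adjusted p = 0.215) and *Ina* at -0.16 (adjusted p = 0.346), and no member passed, where 4.72% of 35389 genes were called. Spiny neuron markers fell with them too, 7 of 8, from a sum of 4921 to 7467 CPM in WT + IPTG to 4064 to 5214 CPM in LacQ140, and 6 of 10 oligodendrocyte markers fell, from 13577 to 17422 CPM to 10436 to 13076 CPM. Of 6 markers of neurofilament-rich interneurons (parvalbumin and cholinergic) 1 fell, with sums of 260.5 to 409 CPM and 196 to 337 CPM. Of the other lists, 2 of 8 cortical, 2 of 6 astrocyte, 3 of 6 microglial, 1 of 5 endothelial and 2 of 4 choroid plexus markers fell, and 1 of 6 pan-neuronal markers rose. Their part in the result was not tested. In bulk tissue, fewer cells of a type and less RNA per cell cannot be told apart.

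**Figure D1:**
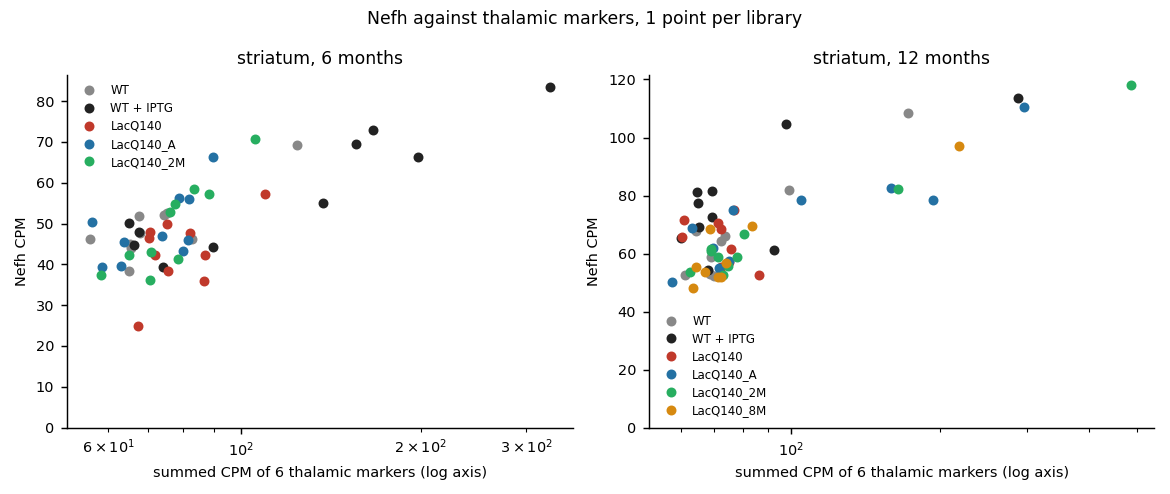
Level of *Nefh* (CPM, linear axis from 0) against the summed CPM of 6 thalamic markers (log axis) in striatum, 1 point per library, coloured by group. At 6 months the 10 LacQ140 libraries end at 110 CPM of markers, and the 6 libraries beyond that are 5 of WT + IPTG, up to 328 CPM of markers and 83.6 CPM of *Nefh*, and 1 of WT.

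*Nefl* in 6-month striatum ran from 244.1 through 267.6 to 286 CPM in WT + IPTG (267.1 ± 14.6, n = 10) and from 205 through 230 to 273 CPM in LacQ140 (235 ± 21.2, n = 10). Of the LacQ140 libraries 7 of 10 lay below the lowest WT + IPTG library, and the other 3 overlapped them. The log2 fold change was -0.19 (SE 0.0491, adjusted p = 0.00547), and against WT without IPTG -0.16 (adjusted p = 0.0231). *Ina* ran from 94.9 through 113 to 129 CPM in WT + IPTG and from 78.9 through 98.7 to 112 CPM in LacQ140, and 8 of 10 WT + IPTG libraries lay above every LacQ140 library. The difference was -0.23 (SE 0.0691, adjusted p = 0.0167), and -0.22 (adjusted p = 0.036) against WT without IPTG. Both genes passed the adjusted p with either WT group as the control. Against WT + IPTG without the marker-high libraries, neither did.

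*Nefm* in 6-month striatum was at -0.18 (SE 0.0882, adjusted p = 0.199), with 178 ± 18.3 CPM in WT + IPTG and 156 ± 29.5 CPM in LacQ140 (n = 10 each). The 3 microtubule-associated genes lay near 0, with *Mapt* at -0.05 (SE 0.0462), *Map2* at 0.05 (SE 0.0612) and *Map1b* at 0.07 (SE 0.0814). Their 95% intervals reached at most 0.23 in either direction. A change above 20% was therefore outside the interval of each of the 3.

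In 12-month striatum *Ina* was the 1 member called, and it fell by 24.0% in LacQ140, where 9.44% of 35386 genes were called. *Ina* ran from 139.5 through 186 to 237 CPM in WT + IPTG (185 ± 28.4, n = 10) and from 116.4 through 135 to 169 CPM in LacQ140 (140 ± 15.6, n = 9). Of the WT + IPTG libraries 7 of 10 lay above the highest LacQ140 library. The log2 fold change was -0.40 (SE 0.0741, adjusted p = 3.51e-05), and it ran from -0.44 to -0.35 when each of the 19 libraries was left out in turn, called in all 19 fits.

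Of the groups, WT + IPTG had the highest mean of *Ina* at 12 months. WT mice without IPTG ran from 131 through 156 to 175 CPM (153 ± 13.0, n = 9), overlapping LacQ140 widely, and with them as the control the difference was -0.13 (adjusted p = 0.364) and the call was lost. WT + IPTG against WT was at 0.27 (SE 0.074, adjusted p = 0.0856), which became a call with the thalamic covariate (0.26, adjusted p = 0.0484). The thalamic sum ran from 59.8 through 68.6 to 288 CPM in WT + IPTG and from 60.4 through 72.2 to 86.4 CPM in LacQ140, and 0 of 6 of its markers were called. Without the 12 marker-high libraries *Ina* was at -0.31 (adjusted p = 0.000659), and with the thalamic covariate at -0.37 (adjusted p = 1.42e-05), called both times. All 8 spiny neuron markers fell at this age, from sums of 5953 to 8909 CPM in WT + IPTG to 3598 to 4384 CPM in LacQ140. Of the other lists, 1 of 10 oligodendrocyte markers rose and 4 fell, 2 of 8 cortical and 2 of 6 pan-neuronal markers rose, 1 of 6 astrocyte, 1 of 6 microglial, 2 of 5 endothelial and 2 of 4 choroid plexus markers fell, and 0 of 6 interneuron markers were called. Their part in the result was not tested.

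The other filament subunits had negative estimates at 12 months without passing. *Nefm* was at -0.22 (SE 0.0832, adjusted p = 0.069), with 200.6 through 256.5 to 323 CPM in WT + IPTG and 158 to 263 CPM (mean 219 ± 32.5) in LacQ140. *Nefh* was at -0.28 (SE 0.136, adjusted p = 0.194), with 54.5 through 75.1 to 114 CPM against 52.6 through 65.8 to 75.1 CPM. The groups overlapped for both genes, and the highest *Nefh* library of LacQ140 was at the median of WT + IPTG. *Nefl* was at -0.11 (SE 0.0457, adjusted p = 0.123). With WT without IPTG as the control the differences were smaller, at -0.09 for *Nefm* (adjusted p = 0.621), -0.07 for *Nefh* (adjusted p = 0.888) and -0.02 for *Nefl* (adjusted p = 0.876). The 95% interval of *Mapt*, from -0.07 to 0.07, was the narrowest of the 7. *Map1b* was at -0.02 (SE 0.0763).

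*Map2*, the dendritic member, had 718 ± 93.7 CPM (n = 9) in LacQ140 at 12 months against 655 ± 53.8 CPM (n = 10) in WT + IPTG. The log2 fold change of 0.13 (SE 0.0617) had an adjusted p of 0.177. With the slope of log2 CPM on log2 transcript length as a covariate it was 0.16 (SE 0.0338, adjusted p = 0.000191), and against WT without IPTG 0.20 (adjusted p = 0.0262), both under the 20% bound. The members' median at 12 months was -0.11, against 0.0 for all genes.

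**Figure D2:**
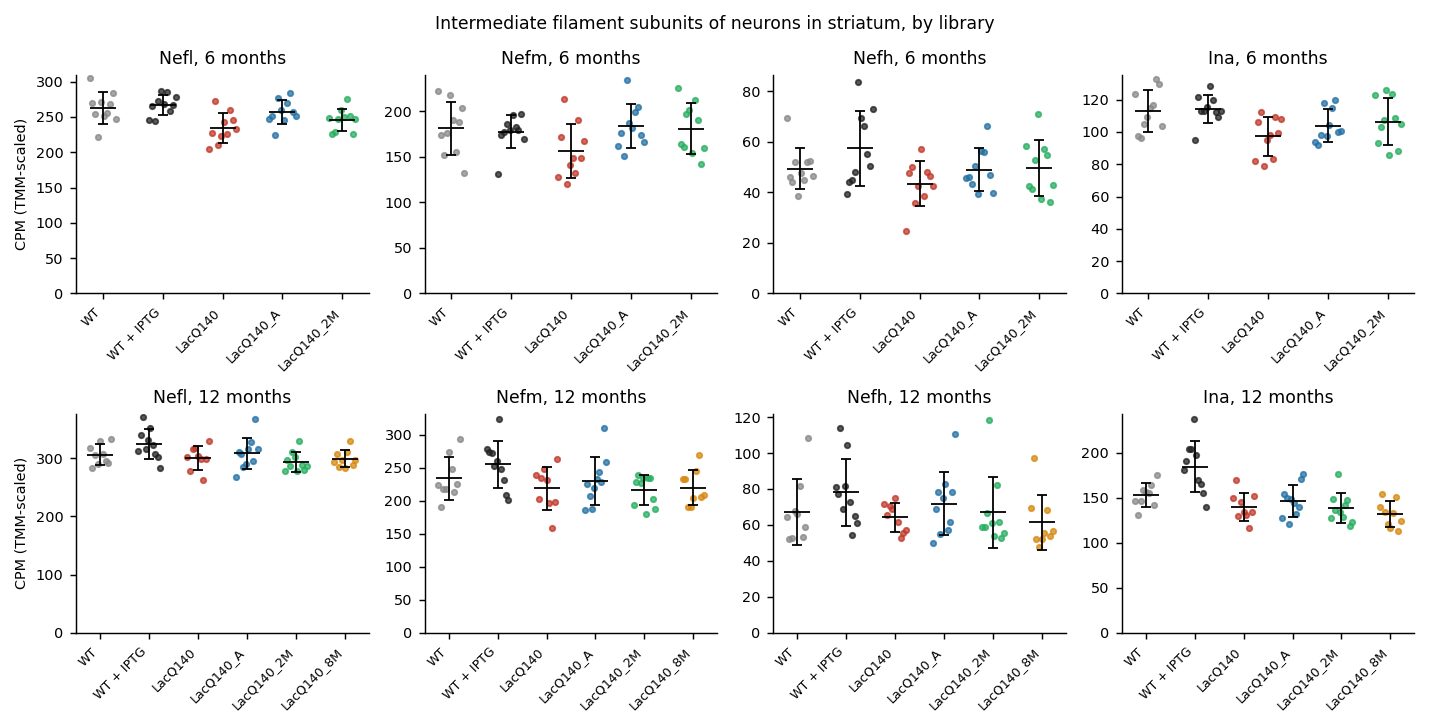
Levels of the 4 filament subunits in striatum (CPM, linear axis from 0), 1 point per library, with the mean and SD of each group, at 6 months (top) and 12 months (bottom). LacQ140 has the lowest mean of the 5 groups for all 4 genes at 6 months, and at 12 months WT + IPTG has the highest mean, 185 CPM for *Ina*.

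In 6-month cortex all 7 estimates for LacQ140 were negative and 0 members were called by edgeR or DESeq2, where 0.881% of 35987 genes were by edgeR. *Nefm* was furthest from 0 at -0.26 (SE 0.0805, adjusted p = 0.0982), with 117 through 152 to 164 CPM in WT + IPTG and 104 to 145 CPM (mean 122 ± 13.6) in LacQ140. Of the WT + IPTG libraries 6 of 10 lay above every LacQ140 library. *Nefh* was at -0.21 (SE 0.0763, adjusted p = 0.204), *Map2* at -0.16 (SE 0.0721, adjusted p = 0.414), and the other 4 between -0.12 and -0.06. At an unadjusted p under 0.05, 4 of 7 members passed, beside 9.94% of all genes. With WT without IPTG as the control *Nefm* was at -0.16 (adjusted p = 0.287) and *Map2* at -0.24 (adjusted p = 0.0373), under the 20% bound. With the length slope as a covariate *Nefm* was at -0.24 with an adjusted p of 0.0486, under the 20% bound. The members' median was -0.12 against 0.0 for all genes.

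In 12-month cortex 0 members were called, where 0.0899% of 34493 genes were, and the estimates ran from -0.13 (*Map2*, SE 0.0801) to 0.18 (*Map1b*, SE 0.194). At an unadjusted p under 0.05, 0 of 7 passed (8.68% of all genes did), and DESeq2 called 0. The standard errors were the largest of the 4 sets for each member, reaching 0.198 for *Nefh*, whose 95% interval ran from -0.21 to 0.57. The intervals of *Nefm*, *Nefh*, *Ina*, *Mapt* and *Map1b* took in a 20% rise, which was not detectable in this set. The difference between the tissues was tested in 1 fit with the mouse as a block. At 6 months 0 members differed (1.39% of all genes did). At 12 months *Ina* differed, with the effect in striatum minus that in cortex at -0.50 (SE 0.141, adjusted p = 0.0329; 3.51% of all genes differed), and with the length slope as a covariate this was -0.34 (adjusted p = 0.154). With WT without IPTG as the control *Ina* was at -0.13 in striatum (adjusted p = 0.364) and 0.06 in cortex (adjusted p = 0.992), and the difference between the tissues was not tested with that control.

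**Figure D3:**
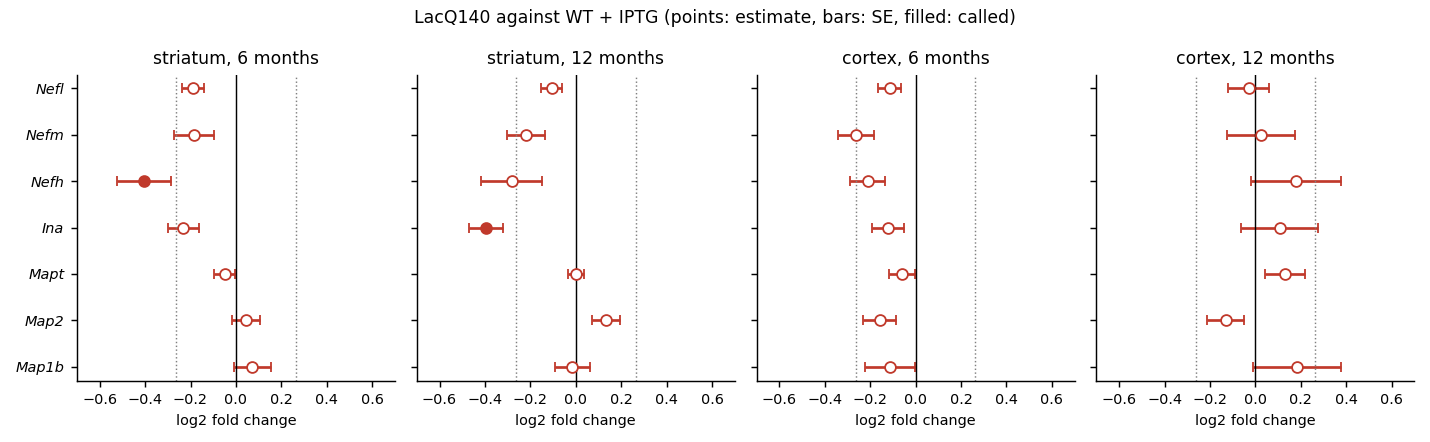
Log2 fold change of LacQ140 against WT + IPTG for each member in 4 panels of tissue and age, with bars of 1 SE, filled points where called and dotted lines at a 20% change (a ratio of 1.2). *Nefh* at -0.41 (striatum, 6 months) and *Ina* at -0.40 (striatum, 12 months) are filled, and the bars of the 12-month cortex are the widest.

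Lowering of m*Htt* was read against LacQ140, the control that all lowering comparisons share. LacQ140 mice stayed on IPTG, and no lowering group was on it when sampled. Lower m*Htt* and absence of IPTG therefore cannot be told apart in these comparisons. DESeq2, like edgeR, called 0 members in every one of them, and in every comparison below for which a count of 0 is given. In 6-month striatum 0 members were called for LacQ140_A, where 1.88% of all genes were, or for LacQ140_2M, where 1.26% were. *Nefm* ran from 151 through 179 to 235 CPM in LacQ140_A and from 143 through 177 to 226 CPM in LacQ140_2M, against 120.6 through 148.5 to 213 CPM in LacQ140. The medians of both lowering groups lay above that of LacQ140, with ranges that overlapped over most of their length. The log2 fold changes were 0.23 (SE 0.0882, p = 0.0106, adjusted p = 0.19 in edgeR) and 0.21 (SE 0.0882, adjusted p = 0.3).

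*Nefl* in LacQ140_A ran from 223.8 through 254.4 to 284 CPM, at 0.13 (SE 0.0491, adjusted p = 0.184), and in LacQ140_2M from 225 through 248.1 to 275.8 CPM, at 0.07 (adjusted p = 0.678). *Nefh* was at 0.18 (SE 0.119) in LacQ140_A and 0.19 (SE 0.119) in LacQ140_2M, with 0.18 and 0.19 without the marker-high libraries, and *Ina* at 0.09 and 0.13 (SE 0.0691 in each). *Mapt* was at 0.11 (SE 0.0462, adjusted p = 0.278) in LacQ140_A. At an unadjusted p under 0.05, 3 of 7 members passed for LacQ140_A and 1 of 7 for LacQ140_2M, all of them positive, beside 12.0% and 11.1% of all genes in either direction. The medians of the 7 were 0.11 and 0.07, against 0.0 for all genes in both comparisons.

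In 12-month striatum 0 members were called in any lowering group, where 0.91% (LacQ140_A), 0.608% (LacQ140_2M) and 0.00565% (LacQ140_8M) of all genes were. *Ina*, the member that fell in LacQ140 at this age, had medians of 147 CPM in LacQ140_A, 135 CPM in LacQ140_2M and 133 CPM in LacQ140_8M, against 135 CPM in LacQ140. All 4 groups overlapped, and the differences were 0.06 (SE 0.074), -0.02 (SE 0.0739) and -0.09 (SE 0.0759). Their 95% intervals ended at 0.21, 0.13 and 0.06. *Nefh* was at 0.16 (SE 0.136), 0.06 (SE 0.136) and -0.06 (SE 0.14). Without the marker-high libraries *Nefh* was at 0.04, -0.14 and -0.18. With the thalamic covariate its LacQ140_A difference was -0.06 and that of LacQ140_2M -0.14, the opposite sign. *Map2* was at -0.19 (SE 0.0617, adjusted p = 0.113) in LacQ140_A, with 627 ± 65.2 CPM against 718 ± 93.7 CPM in LacQ140. It was the 1 member with an unadjusted p under 0.05 in LacQ140_A, and 0 members had one in LacQ140_2M or LacQ140_8M, where 10.4%, 8.32% and 5.13% of all genes had one in the 3 groups.

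LacQ140_8M was also set against LacQ140_2M, late against early lowering. In 12-month striatum 0 members were called (0.0933% of all genes were), with estimates from -0.12 (*Nefh*) to 0.14 (*Map1b*) and 1 of 7 at an unadjusted p under 0.05 (*Map2*, 0.12, adjusted p = 0.663), as had 7.54% of all genes. In 12-month cortex 0 were called (0.0899% of all genes were), and 0 had an unadjusted p under 0.05 (5.0% of all genes had).

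**Figure D4:**
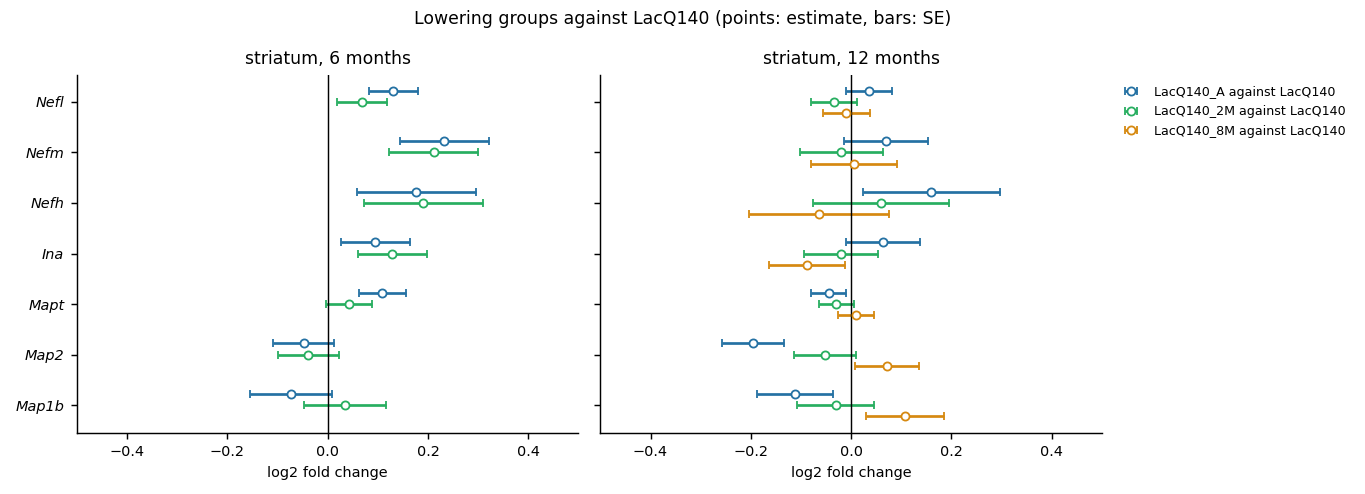
Log2 fold change of each lowering group against LacQ140 in striatum, with bars of 1 SE, at 6 months (left) and 12 months (right). The 4 filament subunits lie to the right of 0 for both groups at 6 months, up to 0.23 for *Nefm*, and scatter around 0 at 12 months.

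In 6-month cortex 0 members were called for LacQ140_A (0.00834% of all genes were) or LacQ140_2M (0.0% were). All 7 estimates for LacQ140_A were positive, from 0.10 to 0.20 (*Map2*, SE 0.0721, adjusted p = 0.435), and 3 of 7 had an unadjusted p under 0.05, against 0 of 7 for LacQ140_2M (7.47% and 9.72% of all genes had one). In 12-month cortex 0 members were called for LacQ140_A (0.0435% of all genes), LacQ140_2M (0.0841%) or LacQ140_8M (0.0%), and 2, 0 and 0 of 7 had an unadjusted p under 0.05, beside 13.2%, 5.51% and 2.83% of all genes. The largest differences were those of LacQ140_A, with *Map1b* at -0.39 (SE 0.195), *Nefh* at -0.38 (SE 0.199) and *Ina* at -0.31 (SE 0.171). When only the 2 groups compared were fitted, these 3 were called, with adjusted p = 0.0116, 0.0204 and 0.0418, where 6.06% of all genes were called (1896 of 31278). With the length slope as a covariate they were 0.07, 0.03 and 0.06, on the other side of 0 and without a call.

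IPTG alone was tested in WT mice. No member was called at 6 months in striatum (0.584% of all genes) or cortex (0.609%), or at 12 months in striatum (0.218%) or cortex (0.0%), and the members with an unadjusted p under 0.05 numbered 0, 0, 2 and 1 in these 4 sets, beside 8.88%, 11.9%, 11.4% and 5.8% of all genes. *Nefh* in 6-month striatum was at 0.22 (SE 0.119, adjusted p = 0.624), and at -0.06 without the marker-high libraries. In 12-month striatum all 7 estimates were positive, from 0.07 (*Map2*) to the 0.27 of *Ina* given above.

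LacQ140_A was compared with WT without IPTG, 2 groups that never received the inducer. Here 0 members were called in 6-month striatum (0.91% of all genes), 12-month striatum (3.15%), 6-month cortex (0.425%) and 12-month cortex (0.0174%), and 0 members had an unadjusted p under 0.05 in any of them (12.5% of all genes had one in 6-month striatum, 11.6% in 6-month and 5.79% in 12-month cortex, and 4941 of 35386 genes in 12-month striatum). In striatum the estimates ran from -0.12 (*Ina*, 6 months, SE 0.0690) to 0.09 (*Nefh*, 12 months, SE 0.136). The 95% interval of *Nefl* ran from -0.13 to 0.06 at 6 months and that of *Map2* from -0.12 to 0.13 at 12 months.

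Males and females were compared over all groups. No member was called in 6-month striatum (0.279% of all genes), 12-month striatum (0.218%), 6-month cortex (0.192%) or 12-month cortex (0.154%), and 1, 0, 6 and 0 of 7 had an unadjusted p under 0.05, beside 10.1%, 10.4%, 11.1% and 5.8% of all genes. In 6-month cortex all 7 estimates of male minus female were positive, from 0.04 (*Map2*) to 0.16 (*Map1b*, SE 0.0669), the smallest adjusted p being 0.156 (*Nefh*, 0.14, SE 0.0446). With the length slope as a covariate *Map1b* was at 0.06 there.

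Most members differed between the tissues themselves at 6 months. In WT + IPTG mice at 6 months, with the mouse as a block, 5 of 7 members were called between striatum and cortex, where 31.2% of all genes were. *Map2* was lower in striatum by -0.87 (SE 0.05, adjusted p = 1.27e-11), with 532 through 626 to 714 CPM against 1057 through 1128 to 1340 CPM in cortex. No striatal library reached the lowest cortical one. *Nefl* (-0.43, SE 0.0426), *Mapt* (-0.37, SE 0.0414) and *Ina* (-0.34, SE 0.055) were lower in striatum as well, whereas *Nefm* was higher (0.28, SE 0.0618, adjusted p = 0.000808). *Nefm* was at 0.24 to 0.25 and lost its call by the 20% bound under DESeq2, DESeq2's size factors and the stricter filter on counts. *Nefh* was at 0.23 (SE 0.0983, adjusted p = 0.0754) and *Map1b* at -0.18 (SE 0.06, adjusted p = 0.0233), under the bound.

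At 12 months 5 of 7 members were again called between the tissues, where 52.4% of all genes were, and all 5 were higher in striatum. *Map1b* was higher by 3.08 (SE 0.119), *Nefm* by 2.02 (SE 0.103), *Nefh* by 1.79 (SE 0.143), *Ina* by 1.39 (SE 0.123) and *Mapt* by 0.92 (SE 0.0719). *Map1b* ran from 470 through 631 to 677 CPM in striatum and from 39.2 through 63.9 to 102 CPM in cortex, without overlap. The slope of log2 CPM on log2 transcript length differed between the sets in parallel, from 0.14 to 0.45 in the 57 libraries of 12-month striatum and from -0.59 to -0.13 in the 60 of 12-month cortex, without overlap, so tissue and slope could hardly be separated. With the slope as a covariate 1 member was called (*Nefl*, -1.33, SE 0.377, adjusted p = 0.0453), and *Nefh* (-1.66), *Ina* (-1.53), *Nefm* (-0.29) and *Mapt* (-0.24) turned sign, while *Map1b* was at 0.26 (SE 0.439). *Map2*, not called with or without the slope, was at -1.17 with it (SE 0.426, adjusted p = 0.144). The slopes at 6 months ran from 0.07 to 0.37 in striatum and from -0.01 to 0.44 in cortex.

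**Figure D5:**
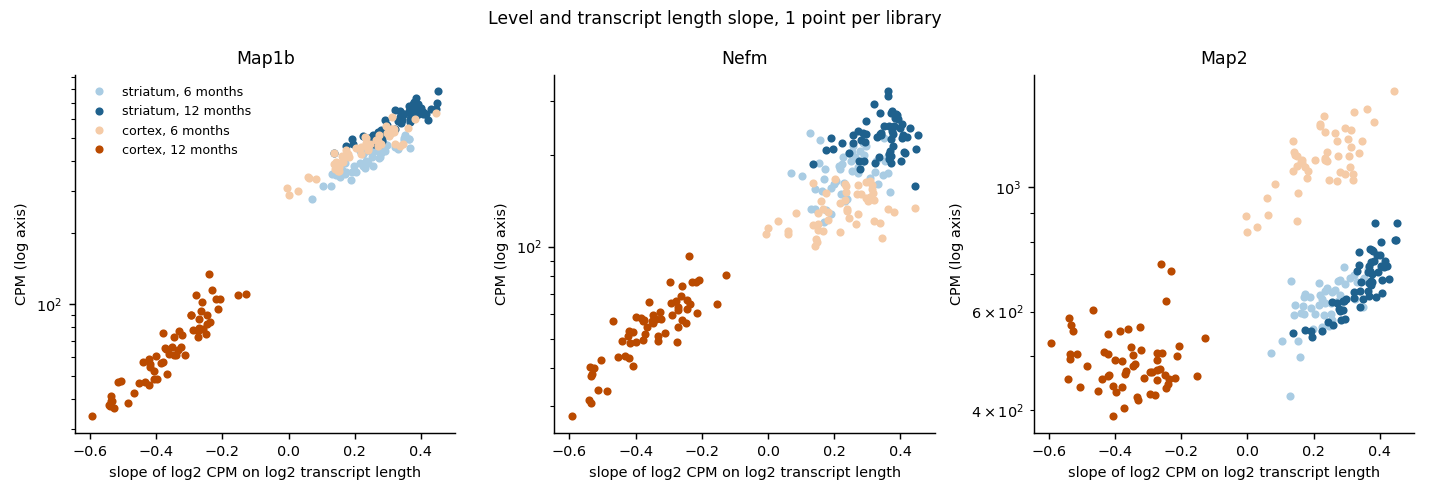
Level of *Map1b*, *Nefm* and *Map2* (CPM, log axis) against the slope of log2 CPM on log2 transcript length, 1 point per library, coloured by tissue and age. The 60 libraries of 12-month cortex lie apart on the left, with slopes from -0.59 to -0.13, and *Map1b* climbs with the slope within every set.

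Within each set, with group means removed, the level of *Map1b*, the longest transcript, followed the length slope closely. Pearson's r was 0.90 (rho 0.88) in 6-month striatum, 0.86 (0.82) in 12-month striatum, 0.94 (0.94) in 6-month cortex and 0.94 (0.94) in 12-month cortex, and 0.88, 0.83, 0.93 and 0.94 without the 2 libraries with the most extreme slopes. Each had an adjusted permutation p of 2.4e-05. *Map2* followed the slope in 3 sets (r = 0.68, 0.86 and 0.71) and not in 12-month cortex (r = 0.04, rho -0.05, adjusted permutation p = 0.85). In 12-month cortex the filament subunits followed it too, with r = 0.80 (*Nefl*), 0.88 (*Nefm*), 0.92 (*Nefh*) and 0.94 (*Ina*), rho from 0.79 to 0.93 and an adjusted permutation p of 2.4e-05 for each, against r of 0.44 or less in striatum of either age and 0.43 to 0.54 in 6-month cortex. *Mapt* gave r = 0.94 in 12-month cortex (rho 0.95) and 0.22 in 12-month striatum (rho 0.23, adjusted permutation p = 0.16).

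The filament subunits varied with each other. In 6-month striatum r was 0.80 for *Nefm* with *Ina*, 0.72 for *Nefl* with *Nefm* and 0.58 for *Nefm* with *Nefh*, and in 12-month striatum 0.67, 0.84 and 0.63 for the same pairs (all adjusted permutation p of 4.7e-05 or less). *Nefh* with *Ina* gave 0.69 and 0.70 in striatum (6 and 12 months) and 0.92 and 0.96 in cortex, with rho between 0.71 and 0.94. *Nefl* and *Nefm* are neighbours that share exonic bases, which bears on their pair. *Map2* with the 4 filament subunits gave r from -0.21 to 0.06 in 6-month striatum, -0.02 to 0.23 in 12-month striatum, 0.18 to 0.51 in 6-month cortex and -0.04 to 0.12 in 12-month cortex. *Map2* and *Map1b* gave 0.66, 0.88 and 0.72 in the first 3 sets and 0.03 in 12-month cortex. Over the 21 pairs of members the median r was 0.53 and 0.32 in striatum (6 and 12 months) and 0.70 and 0.88 in cortex. All points share the depth and length slope of their library.

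Ranked by mean r over the 4 sets among 13711 other genes of at least 1 CPM, *Nefm* was the gene most like *Nefl* (0.77), *Ina* the one most like *Nefm* (0.82) and *Nefh* the one most like *Ina* (0.82), while *Ina* was at rank 4 for *Nefh*. Outside the 7 members, *Nefl* was most like *Cplx1* (complexin 1, a regulator of synaptic vesicle fusion; mean r 0.71), *Lynx1* (a modulator of nicotinic receptors; 0.70) and *Sema7a* (a membrane-anchored semaphorin; 0.69). *Map1b* was most like *Glg1* (a Golgi glycoprotein; 0.93), *Ank2* (ankyrin-B; 0.91) and *Ash1l* (a histone methyltransferase; 0.91). The length slope was not removed for this ranking, and *Map1b* itself followed it with r from 0.86 to 0.94. How far the slope accounts for these likenesses was not tested.

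For LacQ140 in 6-month striatum, where 3.97% of all genes rose and 3.96% fell, 0 of 8 other intermediate filament genes rose and 1 fell (*Nes*, nestin, -0.47, SE 0.130, adjusted p = 0.00967). Of 27 microtubule-associated genes 3 rose and 0 fell: *Camsap3*, which caps microtubule minus ends (0.37, adjusted p = 7.76e-05), *Dcx*, doublecortin of immature neurons (0.41, adjusted p = 0.00899), and *Map7d1* (0.29, adjusted p = 0.00747). Of 14 tubulins 1 fell (*Tubb2b*, -0.29, adjusted p = 0.0139), of 21 kinases and phosphatases of these proteins 1 rose (*Mark4*, a tau kinase, 0.30, adjusted p = 0.00212), and 0 of 27 transport motor genes and 0 of 14 spectrin and ankyrin genes were called. The medians of the 6 lists lay between -0.04 and 0.03, beside 0.0 for all genes.

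At 12 months in striatum, where 4.58% of all genes rose and 4.86% fell, 2 of 27 microtubule-associated genes rose and 2 fell in LacQ140, among them *Stmn2*, stathmin 2 of growing axons, which is also among the pan-neuronal markers (0.71, SE 0.0577, adjusted p = 6.17e-16), *Dcx* (0.76, SE 0.0993, adjusted p = 9.48e-09) and *Dclk1* (-0.50, SE 0.0615, adjusted p = 1.9e-09). Among tubulins *Tubb2a* rose (0.36, adjusted p = 6.22e-05) and *Tuba4a* fell (-0.29, adjusted p = 3.23e-07). The neuronal kinesin *Kif5c* (-0.37, SE 0.0576, adjusted p = 8.41e-07) was the single call among the 27 transport motor genes. Of the kinases and phosphatases 4 of 21 fell and 0 rose, among them *Camk2b* (-0.36), *Mark2* (-0.35) and the Cdk5 activator *Cdk5r2* (-0.33), with a list median of -0.08. No other intermediate filament gene was called.

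In cortex, *Nes* (-0.62, SE 0.121, adjusted p = 0.00292) and *Tubb2b* (-0.43, SE 0.0989, adjusted p = 0.0169) fell in LacQ140 at 6 months, and 0 genes of the 6 lists were called at 12 months. Against LacQ140, *Stmn2* was lower in LacQ140_A in striatum at 6 months (-0.31, SE 0.0686, adjusted p = 0.00308) and at 12 months (-0.28, SE 0.0575, adjusted p = 0.00159), and *Dclk1* was higher in LacQ140_A at 12 months (0.26, SE 0.0613, adjusted p = 0.00875). Against WT without IPTG at 12 months, *Stmn2* was higher in LacQ140_A (0.44, SE 0.058, adjusted p = 4.56e-08) and *Dclk1* lower (-0.29, SE 0.0611, adjusted p = 0.000619). *Tubb2a* was lower in LacQ140_2M at 6 months (-0.27, SE 0.0538, adjusted p = 0.00157). No gene of the 6 lists was called for LacQ140_8M or in any lowering comparison of the cortex, where at most 29 of all genes were called in any 1 comparison. These lists were chosen with earlier results known and carry no test of their own.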

How the data were processed

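RNA-Seq of total RNA was done by the authors on an Illumina NovaSeq with 100 bp paired-end reads. The authors deposited expected counts per gene, unnormalised, in 1 table per age, on GRCm38 per the labels. The aligner, the counter and strandedness are not given in the sources used here. Identifiers were matched to GENCODE vM21 (54495 of 54532). Counts were rounded, genes with at least 1 count in a tissue and age were kept, and 1 model over all its groups was fitted in edgeR 4.0.16 (TMM, quasi-likelihood F-test) in R 4.3.3, with Benjamini-Hochberg adjustment over all genes. SE was taken from F, and 95% intervals are 1.96 SE. Tissue comparisons had the mouse as a block, since the residuals of a mouse correlated between tissues (mean r 0.26 at 6 months and 0.20 at 12 months). Levels are TMM-scaled CPM, whose depth limits counting error only. Correlations used log2 CPM (prior count 2) with group means removed. The length slope was fitted over 13377 to 13665 genes per library. P-values measure the spread between mice.

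Members, gene lists and markers were chosen with earlier results of these data known. Named were the 7 members, *Htt*, up to 3 called genes per list with the smallest p, and for *Nefl* and *Map1b* the 3 most similar genes. Alternatives were DESeq2 1.42.0, its size factors, filterByExpr, sex, replicate or mouse block, length slope, only the groups compared, no bound on fold change and leaving out each library. The marker-high libraries, the thalamic covariate and WT without IPTG as the control were added after seeing the data. The scripts were tested on simulated data. No pair of the 963 within groups looked like 1 library under 2 names (smallest chi-square per degree of freedom 6.15, median 33.19). For the lists, 1 result of the 12-month striatum is not reported here.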

Additional observations from a re-analysis of the deposited data

Results flagged for a closer look

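Single libraries were tested for standing apart from their group in 154 tests (each of 7 genes in each group of 9 or 10 libraries), of which chance flags about 1 in 20, and in 7 of them a library did. In 6-month striatum, *Nefh* in WT F1 was 69.3 CPM (next 52.5 CPM, thalamic sum 124 CPM) and *Nefm* in WT + IPTG F1 was 132 CPM (next 170 CPM). In 12-month striatum, LacQ140_2M F4 was high for *Nefh* (118 CPM, next 82.3 CPM) and *Ina* (177 CPM, next 149 CPM), with the highest thalamic sum of the set at 488 CPM. LacQ140_8M F2 was high for *Nefh* (97.2 CPM, next 69.4 CPM, thalamic sum 219 CPM). *Map1b* in WT + IPTG M4 was 470 CPM at 12 months in striatum (next 574 CPM), in a library with a length slope of 0.20. *Map2* in LacQ140_2M M4 was 709 CPM in 12-month cortex (next 554 CPM).

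The LacQ140 effect on *Ina* at 12 months differed between the tissues by the test of the difference itself, at -0.50 on the log2 scale (striatum minus cortex). It was lost with the length slope as a covariate (-0.34). It was not tested with WT without IPTG as the control, where *Ina* was at -0.13 in striatum and 0.06 in cortex.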

How the results depend on the processing

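Under other settings, leaving out single libraries aside, 9 counts of called members moved by over 1.5 times. That of 5 between the tissues at 6 months ran from 4 to 6. For LacQ140 in 6-month striatum the count of 1 became 3 without the fold change bound, and 0 with WT without IPTG as the control (5.85% of all genes called, against 7.93%), without the marker-high libraries (4.72%) and with the thalamic covariate (6.59%). It ran from 0 to 1 when each library was left out, 0 without WT + IPTG F5. For LacQ140 in 12-month striatum it became 0 with WT without IPTG as the control (7.71% of all genes). For IPTG in WT in 12-month striatum it became 1 with the thalamic covariate (0.308%). For LacQ140_A in 12-month cortex it became 3 when only the groups compared were fitted (6.06%). With the length slope it became 1 between the tissues at 12 months (4.45%) and 0 for the tissue difference of the LacQ140 effect at 12 months (3.03%), and this setting also turned *Nefh* (-1.66), *Mapt* (-0.24), *Nefm* (-0.29) and *Ina* (-1.53) between the tissues. *Map2*, not called there, was at -1.17 under it. The causes were not tested, except that libraries were fewer where some were left out.

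Of 1624 fold changes under other settings, 1541 either kept a call with its direction or, where not called, moved by less than 1 SE. The replicate number was not taken to pair libraries: those with the same number correlated by 0.11 to 0.13 on average against -0.01 for other pairs, with 61 of 100, 66 of 135, 60 of 100 and 73 of 150 such pairs over 0.1, so not every pair was, and 6, 3, 7 and 15 libraries of the 4 sets correlated best with their own number. With the replicate block the LacQ140 counts stayed at 1 (striatum, 6 months, *Nefh* -0.39, adjusted p = 0.031) and 1 (striatum, 12 months), and at 0 in both cortical sets. Without the mouse block 6 members were called between the tissues at 6 months (32.4% of all genes). The spread between libraries limits the 12-month cortex, where SEs reached 0.199.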
